A study of Mus musculus with 16 samples.

Results

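Transcripts of 8 genes were followed in the single cells of mouse thoracic aortas: Yap1 and Wwtr1, which encode the co-activators YAP and TAZ, Tead1 and Tead3, which encode DNA-binding partners of both, and the targets Ctgf, Cyr61, Ankrd1 and Amotl2. The genes were chosen by symbol, and all 8 were found among the 31055 features of the matrices. Each of the 16 libraries came from 1 mouse of strain 129S6/SvEv and was labelled Smad3+/+ or Smad3SmKO. In the Smad3SmKO mice, floxed Smad3 was to be removed by a tamoxifen-inducible Cre under the Myh11 promoter, and the Smad3+/+ controls carried the same Cre. Tamoxifen was given at 6 weeks of age to males, since the transgene is Y-linked, so both genotypes had the Cre and the drug and females were not studied. Aortas were taken 10 weeks later (2 Smad3+/+ and 2 Smad3SmKO libraries, all of batch 4 and digested for 60 min) or 18 weeks later (5 Smad3+/+ and 7 Smad3SmKO libraries, digested for 30 min in batches 1, 2 and 3 and for 60 min in batches 5 and 6). Batch 5 held Smad3SmKO libraries only. By label a Myh11-GFP tracer was carried by both Smad3+/+ libraries and by neither Smad3SmKO library of 10 weeks, and at 18 weeks by the 5 libraries of 60 min and by none of 30 min, so by label the tracer cannot be told apart from genotype at 10 weeks or from digestion at 18 weeks.

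YAP and TAZ have no DNA-binding domain of their own. When the Hippo kinases Lats1 and Lats2 are active, both proteins are phosphorylated and held in the cytoplasm or degraded, and when a cell is spread on a stiff matrix or under tension, both enter the nucleus and act through TEAD factors. In the vessel wall the pathway is known for growth of smooth muscle, for the response to stretch and flow, and for cross-talk with TGF-beta signaling, since YAP, TAZ and Smad proteins can share target genes. Because control is largely by phosphorylation, the RNA of Yap1 or Wwtr1 does not measure the activity of the protein, and the level of target genes is the usual readout.

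TEAD factors recognize the letters CATTCC, or GGAATG on the other strand. Both forms were searched in the 250 bases before each start site in the RefSeq promoter table for GRCm38.p6. Entries were found for 6 of the 8 genes, with none used for Ctgf and Tead1, and the letters were present in at least 1 window of all 6. They were present in 12.6% of 32851 windows of that length, and in at least 1 window of 14.4% of 27025 genes. A match describes the sequence only and is not a measured binding site. The windows below, 30 bases each and written in the direction of the gene, are shown because they hold the TEAD letters of the genes whose transcripts are described, with the match in capitals.
Yap1, chr9:8004720-8004749, minus strand, match from 141 bases before the start site: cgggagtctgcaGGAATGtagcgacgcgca
Wwtr1, chr3:57576029-57576058, minus strand, 136 or 170 bases before, by the start site taken: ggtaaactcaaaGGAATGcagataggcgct
Tead3, chr17:28350970-28350999, minus strand, 182 bases before: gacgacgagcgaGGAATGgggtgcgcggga
Cyr61, chr3:145650071-145650100, minus strand, 103 bases before: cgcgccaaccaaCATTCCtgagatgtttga
Ankrd1, chr19:36120037-36120066, minus strand, 210 bases before: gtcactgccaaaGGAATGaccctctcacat
Ankrd1, chr19:36119950-36119979, minus strand, 123 bases before: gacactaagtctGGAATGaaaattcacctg
Amotl2, chr9:102717727-102717756, plus strand, 65 bases before: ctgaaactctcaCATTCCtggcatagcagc
Ankrd1 held 2 matches in its window, as did 1 further window of Tead3, against 1.02% of all windows with 2 or more. In GENCODE M21 the printed windows of Yap1, Wwtr1, Tead3 and Cyr61 lay upstream of the gene. Those of Ankrd1 and Amotl2 lay in a UTR exon of a gene model that starts earlier than the RefSeq one. The matches of the further Tead3 window, which are not printed, also lay in a UTR exon. The AP-1 letters TGANTCA (6.75% of windows) and the CArG box of serum response factor (1.47%) were in none of the windows of the 6 genes, which says only that these letters were not there.

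In GRCm38 with GENCODE M21, Yap1 lies at chr9:7931999-8004596 and Wwtr1 at chr3:57455649-57575910, both on the minus strand. Tead1 lies at chr7:112679318-112906807 on the plus strand and Tead3 at chr17:28331671-28350817 on the minus strand. Of the targets, Ctgf (Ccn2 in the annotation) lies at chr10:24595442-24598683 and Amotl2 at chr9:102716672-102733418, both on the plus strand. Cyr61 (Ccn1) lies at chr3:145646976-145649981 and Ankrd1 at chr19:36111961-36120099, both on the minus strand. The libraries were tagged at the 3′ end of transcripts, so the counts belong to whole genes and not to exons.

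Each captured RNA molecule was counted once by its unique molecular identifier (UMI). The libraries held 12539539 to 52843031 UMIs, and 50858 of 66349 barcodes (76.7%) were kept as cells. VSMCs were cells with at least 5 UMIs of Myh11, a myosin of contractile smooth muscle, and more Myh11 than Dcn. Fibroblasts had at least 5 UMIs of Dcn, the matrix proteoglycan decorin, and more Dcn than Myh11. Endothelial cells had at least 2 UMIs of the junction genes Pecam1 and Cdh5 together. This gave 8950 VSMCs (22 to 1706 per library), 36066 fibroblasts (196 to 5505) and 3303 endothelial cells (31 to 469), 46270 cells in all. The endothelial rule took in cells of other types: 1813 of the 3303 were also fibroblasts and 236 also VSMCs by the rules above. In the 1254 that were endothelial alone, Dcn was 119 CPM (UMIs per 1e6 UMIs) against 7846 in all 3303, Cdh5 was 536 against 153 and the VEGF receptor gene Kdr 395 against 107, so endothelial levels are given for both, and shares of cells and the listed genes for the rule as given alone. The cells of 1 type only numbered at least 10 in 15 libraries. UMIs were summed per library and type, and CPM per library below are scaled by the trimmed mean of M values (TMM) over all 3 types. CPM of the VSMC subsets are scaled within each subset, and those of leukocytes, pooled over libraries, are not scaled.

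The libraries were checked against the labels before any comparison. Smad3 itself, as summed over VSMCs, was 6.01 and 6.21 CPM in the Smad3+/+ libraries of 10 weeks and 9.89 and 6.43 CPM in those labelled Smad3SmKO. In the libraries of 18 weeks it was 2.98, 9.06, 9.24, 7.43 and 8.50 CPM in Smad3+/+ and 4.58 to 15.1 CPM (median 8.68, n = 7) in the libraries labelled Smad3SmKO, so the groups overlapped. On the log2 scale the genotypes differed by 0.45 (SE 0.37) at 10 weeks and by 0.04 (SE 0.37) at 18 weeks, and neither passed the test. Tags at the 3′ end may lie outside the deleted exons and then check nothing, so groups are called by their labels. The study itself reported less Smad3 protein and RNA in aortas of Smad3SmKO mice, by immunoblot and by qPCR relative to Myh11. GFP, the tracer of smooth muscle, went against its label in 4 libraries: it was 22.9 and 26.6 CPM in VSMCs of the Smad3SmKO libraries of 10 weeks, labelled without it, and 0 in replicates 4 and 5 of Smad3+/+ at 18 weeks, labelled with it. These last 2 libraries also shared 3507 barcodes, with a median of 710 UMIs in the smaller and 17470 in the larger of each pair, while any pair with a library of 30 min shared at most 13. Over all libraries 5157 of 59572 barcode sequences were in more than 1. Leaving out the 346 kept cells that held more UMIs in another library, or both libraries, is named below where it changed a call. In the libraries labelled Smad3SmKO at 18 weeks, replicate 7 stood apart in its fibroblasts, with 405 CPM of Myh11 against 5.13 to 55.9 CPM in the other 6.

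All 8 genes had UMIs in VSMCs, in fibroblasts and in endothelial cells by the rule as given, and were low in leukocytes. Free RNA can give UMIs of genes that a cell does not express. In endothelial cells of 1 type only, Tead3 had 20 UMIs in all and Ankrd1 was 0 to 58.9 CPM per library. Whether free RNA gave UMIs there was not tested. Summed over the 1359 leukocytes, Yap1 was 0.252 CPM, Wwtr1 2.10, Tead1 0.755, Tead3 0.419, Ankrd1 1.93 and Amotl2 2.18 CPM, while Ctgf was 24.5 and Cyr61 23.7 CPM. A UMI of Ctgf was found in 94.8% of VSMCs, 81.7% of fibroblasts and 65.8% of endothelial cells, against 15.9% of leukocytes. The endothelial share is by the rule as given, where 1813 of 3303 cells were also fibroblasts. Depth differed between the types: the median over libraries of the median UMIs per cell was 10824.5 in VSMCs and 6181.5 in leukocytes. When each cell was thinned to 2000 UMIs for this reason, the shares for Ctgf were 83.4%, 65.7%, 50.2% and 6.84%. Ctgf encodes connective tissue growth factor, a secreted matricellular protein. Tead3 had a UMI in 29.2% of VSMCs, 8.73% of fibroblasts and 0.368% of leukocytes, or 7.22%, 1.91% and 0.147% after thinning. Ankrd1, a nuclear and sarcomeric ankyrin repeat protein, had one in 13.6% of VSMCs, 2.78% of fibroblasts and 1.18% of leukocytes, or 5.34%, 1.02% and 0.294% after thinning.

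Of the co-activators, Wwtr1 differed in level between the cell types and Yap1 little. Wwtr1 was lowest in VSMCs, with 76.3 CPM in the lowest library, 91.9 in the median and 107 in the highest (n = 16). It was 106, 131.5 and 182 CPM in fibroblasts, and 82.1, 160 and 221 CPM in endothelial cells. In endothelial cells of 1 type only it was 87.1, 224 and 319 CPM (n = 15). The VSMC level of Wwtr1 was below the fibroblast level in 15 of 16 libraries and below the endothelial level in all 16. Yap1 was 19.9, 27.9 and 48.7 CPM in VSMCs, 20.2, 24.6 and 52.3 CPM in fibroblasts, and 10.5, 22.9 and 43.0 CPM in endothelial cells, with 6.17, 21.8 and 47.9 CPM in those of 1 type only. Its ranges overlapped almost wholly.

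The TEAD factors were both highest in VSMCs. Tead3 was 23.8, 44.8 and 57.5 CPM in VSMCs and 7.37, 9.97 and 21.9 CPM in fibroblasts (lowest, median and highest of 16 libraries), so the ranges did not overlap, as for 9.38% of all genes. In endothelial cells it was 1.51, 7.92 and 30.0 CPM by the rule, and 0, 1.33 and 8.60 CPM in those of 1 type only, where 20 UMIs were counted in all. Tead3 was higher in VSMCs than in endothelial cells in 16 of 16 libraries. Tead1 was 35.1, 59.1 and 77.8 CPM in VSMCs, 26.4, 45.9 and 64.9 CPM in fibroblasts and 23.4, 34.1 and 59.7 CPM in endothelial cells, or 17.7, 30.7 and 49.9 CPM in those of 1 type only. Tead1 was higher in VSMCs than in fibroblasts in 11 of 16 libraries and than in endothelial cells in all 16.

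The targets did not share an order. Ctgf was 1304, 2855 and 5440 CPM in VSMCs, 979, 2456 and 3594 CPM in fibroblasts, and 909, 1983 and 4322 CPM in endothelial cells by the rule. In endothelial cells of 1 type only Ctgf was 65.5, 388 and 1448 CPM, below the VSMC and the fibroblast level in 15 of 15 libraries. Cyr61, the sister matricellular gene, was 292, 596 and 1284 CPM in VSMCs, 309, 547 and 1133 CPM in fibroblasts and 261, 534 and 731 CPM in endothelial cells, with 130.99, 333 and 573 CPM in those of 1 type only. The levels of Cyr61 overlapped between all types. Ankrd1 varied widely between libraries: 5.64, 59.0 and 147 CPM in VSMCs, 1.64, 9.71 and 104 CPM in fibroblasts and 0.605, 13.8 and 63.9 CPM in endothelial cells, with 0, 2.98 and 58.9 CPM in those of 1 type only. It was higher in VSMCs than in fibroblasts in 16 of 16 libraries. Amotl2, a scaffold of the angiomotin family that binds YAP and is itself a target, had the order of Wwtr1 rather than that of Ankrd1. It was 16.9, 27.4 and 41.4 CPM in VSMCs, 17.6, 36.8 and 86.3 CPM in fibroblasts and 16.1, 38.6 and 66.7 CPM in endothelial cells, with 20.9, 52.4 and 84.3 CPM in those of 1 type only.

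**Figure D1:**
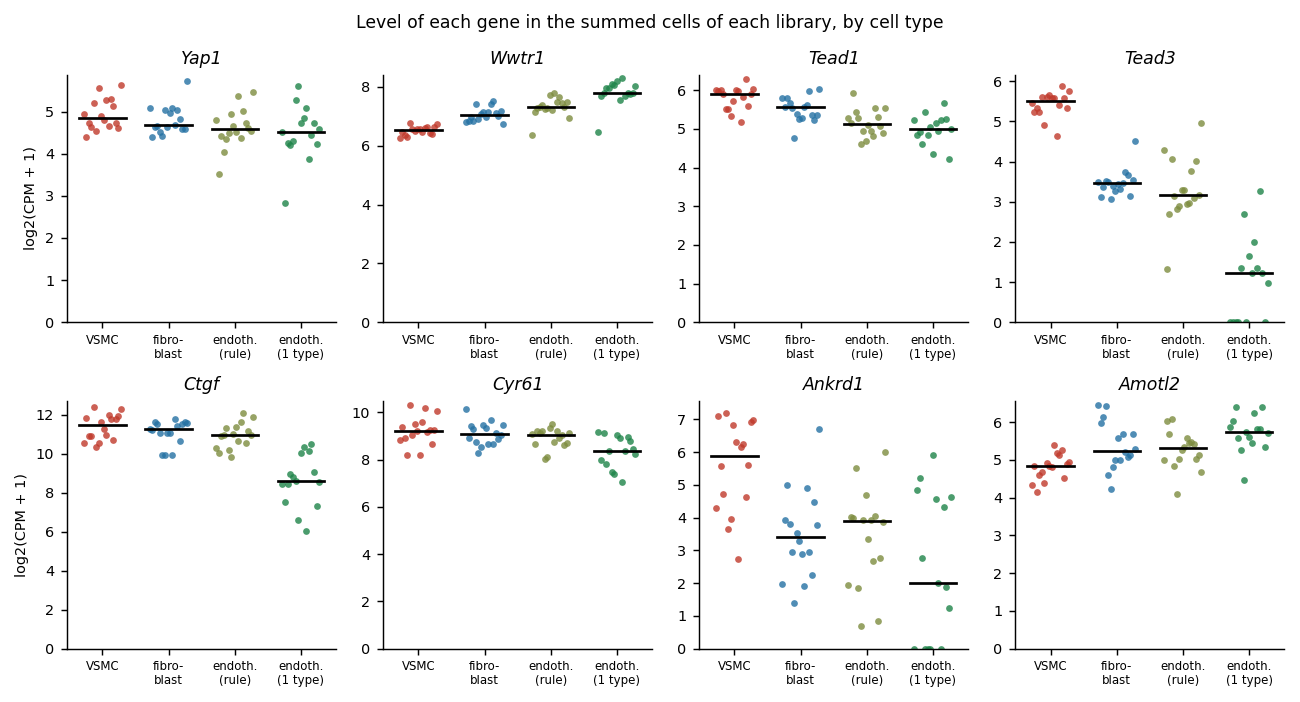
Level of each of the 8 genes, as log2(CPM + 1) on the vertical axis, in the summed cells of each library (1 point per library, 16 per cell type and 15 for endothelial cells of 1 type only), with the median as a line. Tead3 and Ankrd1 stand highest in VSMCs, Wwtr1 and Amotl2 highest in endothelial cells of 1 type only, and Ctgf has a median of 388 CPM in those.

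In a fit over the sums of the 3 types with the library as a block (edgeR's quasi-likelihood test with Benjamini-Hochberg adjustment over 11974 genes), 5 of the 8 genes differed between VSMCs and fibroblasts, where 74.4% of all genes tested did. Ankrd1 was higher in VSMCs by a log2 fold change of 2.32 (SE 0.33, adjusted p = 1.52e-07) and Tead3 by 2.04 (SE 0.11, adjusted p = 1.48e-18). Tead1 was higher by 0.29 (SE 0.07, adjusted p = 0.000486). Amotl2 was lower, with a log2 fold change of -0.72 (SE 0.16, adjusted p = 0.000119), as was Wwtr1, at -0.54 (SE 0.06, adjusted p = 1.67e-09). For Ctgf the log2 fold change was 0.29 (SE 0.14, adjusted p = 0.0615), and it was higher in VSMCs in 13 of 16 libraries. That value for Ctgf passed without Smad3+/+ replicate 1 of 10 weeks (adjusted p = 0.0192), or without Smad3SmKO replicate 1 (0.0277) or 2 (0.0327) of that time. Cyr61, at 0.18 (SE 0.17, adjusted p = 0.341), and Yap1, at 0.11 (SE 0.06, adjusted p = 0.204), did not pass.

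Between VSMCs and endothelial cells all 8 genes differed by the rule as given, beside 68.2% of all genes. Tead3 was higher in VSMCs by 2.16 on the log2 scale (SE 0.13) and Ankrd1 by 2.45 (SE 0.39). Smaller log2 differences in the same direction were found for Tead1 (0.67, SE 0.08), Ctgf (0.44, SE 0.14), Cyr61 (0.38, SE 0.17) and Yap1 (0.26, SE 0.07), and Wwtr1 (-0.80, SE 0.07) and Amotl2 (-0.58, SE 0.17) were lower. With endothelial cells of 1 type only, 7 of the 8 passed, and the share of all genes that passed was not taken with these cells. The differences grew for all of the 7 but Ankrd1: the log2 fold change was 4.30 for Tead3 (SE 0.24), 2.52 for Ctgf (SE 0.28), 2.09 for Ankrd1 (SE 0.48), 0.87 for Cyr61 (SE 0.21), 0.80 for Tead1 (SE 0.11), -1.34 for Wwtr1 (SE 0.08) and -1.003 for Amotl2 (SE 0.20). Yap1 was then at 0.24 (SE 0.12, adjusted p = 0.244) and had lost its call. By the rule as given, Yap1 also lost it without Smad3+/+ replicate 2 (adjusted p = 0.0568) or 3 (0.124) or Smad3SmKO replicate 3 (0.0897) of 18 weeks. Cyr61, with an adjusted p of 0.0468, lost its call in DESeq2 (adjusted p = 0.0618) and when any 1 of 11 libraries was left out: Smad3+/+ replicate 2 of 10 weeks, Smad3+/+ replicates 1 to 4 of 18 weeks, or Smad3SmKO replicates 1 to 4, 6 and 7 of 18 weeks (adjusted p from 0.0554 to 0.224).

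Between fibroblasts and endothelial cells fewer calls were made, 2 of the 8 past the test beside 40.7% of all genes. Wwtr1 was lower in fibroblasts, at -0.26 on the log2 scale (SE 0.06), and Tead1 higher at 0.37 (SE 0.08). With endothelial cells of 1 type only, 5 of the 8 passed. The share of all genes that passed was not taken with these cells, so that count has no background beside it. Tead3 was higher in fibroblasts by 2.29 on the log2 scale (SE 0.28), Ctgf by 2.22 (SE 0.28), Cyr61 by 0.71 (SE 0.21) and Tead1 by 0.52 (SE 0.11). Wwtr1 was lower at -0.76 (SE 0.08). Yap1 had an adjusted p of 0.0548 by the rule as given and passed without Smad3+/+ replicate 2 (0.0441) or Smad3SmKO replicate 1 (0.0201) of 18 weeks, and without the cells that held more UMIs in another library (0.0457).

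Between VSMCs and fibroblasts, where 74.4% of all genes passed, calls in the wider pathway went in both directions. Of 36 Hippo pathway genes, 30 were tested, 11 were higher in VSMCs, 13 were lower and 6 did not pass, with a median log2 fold change of -0.04 beside -0.02 for all genes. Those most raised were Wtip (2.50, SE 0.13) and Ajuba (0.87, SE 0.17), whose LIM proteins restrain the Lats kinases, Wwc1 (1.17, SE 0.20), which encodes the Lats activator Kibra, and the giant cadherin Fat4 (0.88, SE 0.13). The most reduced were the cadherin Dchs1 (-2.45, SE 0.18), which is the ligand of Fat4, the TEAD family member Tead2 (-1.42, SE 0.11), the angiomotin Amot (-0.90, SE 0.17) and the upstream kinase Map4k4 (-0.65, SE 0.09). Lats2 was higher (0.41, SE 0.07), and Lats1 was at -0.01 (SE 0.05) and did not pass. The TEAD family thus differed within itself, with Tead1 and Tead3 higher in VSMCs and Tead2 higher in fibroblasts.

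Calls in the other lists are likewise given beside the 74.4% of all genes that passed between VSMCs and fibroblasts. Of 22 other targets of YAP and TAZ, 3 of which are also Hippo genes, 20 were tested. Of these, 6 were higher in VSMCs and 12 lower, with a median log2 fold change of -0.38 beside -0.02 for all genes. Crim1 (2.28, SE 0.17), a membrane protein that binds growth factors, Fjx1 (2.26, SE 0.17), a homolog of the fly gene four-jointed, Arhgef17 (1.99, SE 0.12) and the ligand Tgfb2 (1.26, SE 0.09) were the most raised. Igfbp3 (-5.34, SE 0.36), a binding protein of insulin-like growth factors, the tissue factor gene F3 (-5.32, SE 0.23), the kinase Nuak2 (-3.54, SE 0.24) and the matrix gene Ccdc80 (-3.07, SE 0.19) were the most reduced. Of the other genes of the CCN family, to which Ctgf and Cyr61 belong, Nov (Ccn3) was higher in VSMCs by 3.84 on the log2 scale (SE 0.22), and Wisp1 (-2.26, SE 0.25) and Wisp2 (-1.91, SE 0.22) were lower. Wisp3 was not tested. Of 20 immediate early and dissociation genes, which include targets of stress during tissue digestion, 5 were higher in VSMCs and 13 lower.

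**Figure D2:**
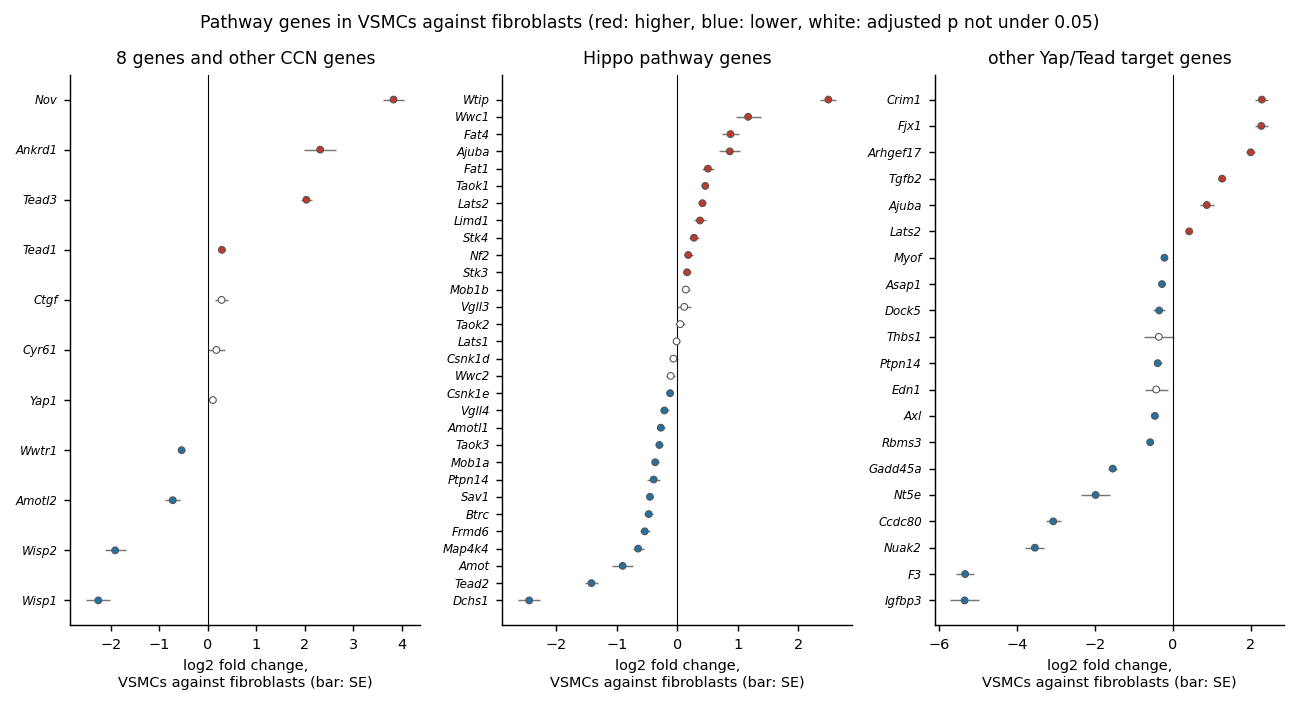
Fitted log2 fold change (horizontal axis, with SE) of VSMCs against fibroblasts over 16 libraries, for the 8 genes with other CCN genes, for Hippo pathway genes and for other Yap and Tead targets, 1 point per gene, with white points for genes that did not pass. Nov, Ankrd1 and Tead3 lie at the right of the first panel, between 2.04 and 3.84. The Hippo list holds 11 genes on the right and 13 on the left that passed, where 74.4% of all genes did.

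VSMCs differ along the aorta, and the study used Notch3 and Enpep, and Ptprz1 and Tes, as marks of VSMC subsets with a different place along it. In 14 libraries with at least 10 cells of each kind, the 777 VSMCs with a UMI of Notch3 or Enpep and none of Ptprz1 or Tes were compared with the 5361 that had the reverse. Ctgf was the only one of the 8 that passed (26.6% of 6151 genes did). The CPM here were scaled within each subset, so they and the counts of libraries compare across separate scalings. The fit scaled both subsets together. Its lowest, median and highest level was 899, 2580 and 4510 CPM in the Notch3 or Enpep cells and 1394, 3191 and 5220 CPM in the others, and it was lower in the former in 12 of 14 libraries, with a log2 fold change of -0.31 (SE 0.08, adjusted p = 0.0105). Cyr61 was 252, 690 and 1307 CPM against 221, 496 and 1234 CPM, higher in 10 of 14 libraries, at 0.40 (SE 0.20, adjusted p = 0.165). Amotl2 was at 0.32 (SE 0.14, adjusted p = 0.0971). Without Smad3SmKO replicate 1 of 18 weeks both passed, Cyr61 at 0.53 (SE 0.12, adjusted p = 0.00643) and Amotl2 at 0.36 (SE 0.13, adjusted p = 0.0422). Ankrd1 (0.46, SE 0.38), Yap1 (0.19, SE 0.12), Tead3 (-0.16, SE 0.11), Tead1 (0.11, SE 0.11) and Wwtr1 (0.01, SE 0.10) did not pass.

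The lists were compared between the same subsets, beside the 26.6% of all genes that passed. Of the 20 immediate early genes, 17 were higher in the Notch3 or Enpep cells, among them Junb (1.81, SE 0.21). Their summed level, with CPM scaled within each subset, was 12498 CPM in the median library against 6898 CPM, higher in 14 of 14 libraries. Whether that bears on Ctgf or Cyr61 was not tested. Of 19 Hippo genes tested, 3 were higher (Limd1 1.52, Wtip 0.58 and Map4k4 0.44) and 1 lower (Taok1, -0.29). Of 11 other targets, 3 were higher (Thbs1 3.53, SE 0.32, Crim1 1.23 and Asap1 0.27) and 2 lower (Fjx1 -0.54 and Myof -0.28). Nov was lower in the Notch3 or Enpep cells (-0.43, SE 0.11), as Ctgf was.

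The design sets the genotypes against each other in VSMCs at both times, to find the RNA that Smad3 controls there. None of the 8 genes passed the test between genotypes in VSMCs at either time. At 10 weeks 0 passed by edgeR (0% of all 11852 genes did), 0 had an unadjusted p under 0.05, and 0 passed in DESeq2. Ctgf was 1532 and 3716 CPM in Smad3+/+ and 1903 and 1929 CPM in the libraries labelled Smad3SmKO, and Ankrd1 was 18.5 and 136 CPM against 46.8 and 25.3 CPM. In both genes the Smad3+/+ libraries lay on either side of the others, and for none of the 8 were the ranges apart, as they were for 30.1% of all genes. The log2 fold change was -0.45 for Ctgf (SE 0.35), -1.03 for Ankrd1 (SE 0.86) and -0.55 for Cyr61 (SE 0.53), which was 461 and 673 CPM against 479 and 292 CPM. The fitted value was below 0 for all 8, with a median of -0.14 beside -0.01 for all genes tested.

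At 18 weeks 0 of the 8 passed in VSMCs by edgeR (0.0337% of all genes did), with 0 at an unadjusted p under 0.05 and 0 in DESeq2. Amotl2 came nearest. It was 24.8, 19.9, 29.1, 27.3 and 27.3 CPM in Smad3+/+ and 21.8, 34.1 and 41.4 CPM in the libraries labelled Smad3SmKO (lowest, median and highest of 7). Of those 7, 5 lay above every control, and the log2 fold change was 0.38 (SE 0.20, adjusted p = 1). Within the 4 batches that held both genotypes, Amotl2 was higher under the Smad3SmKO label in 4 of 4, by 0.08 to 0.87 on the log2 scale, with no test. Ctgf was 5440, 1304, 1494, 3209 and 2501 CPM in Smad3+/+ and 1651, 3560 and 5139 CPM in the others. The libraries of batch 3 were at 1304 and 1651 CPM and those of batch 1 at 3517 to 5440 CPM, each with both genotypes. Its log2 fold change was 0.15 (SE 0.23). Tead1 (0.26, SE 0.18) was higher under the Smad3SmKO label in 4 of 4 batches, and Cyr61 (0.04, SE 0.34), Wwtr1 (-0.05, SE 0.12), Tead3 (-0.14, SE 0.20), Yap1 (-0.15, SE 0.24) and Ankrd1 (-0.24, SE 0.69) went both ways between batches. The effect of genotype at 18 weeks minus that at 10 weeks passed for 0 of the 8 (0.00844% of all genes, 0 at an unadjusted p under 0.05 and 0 in DESeq2), with the largest fitted difference for Ankrd1 (0.79, SE 1.10).

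**Figure D3:**
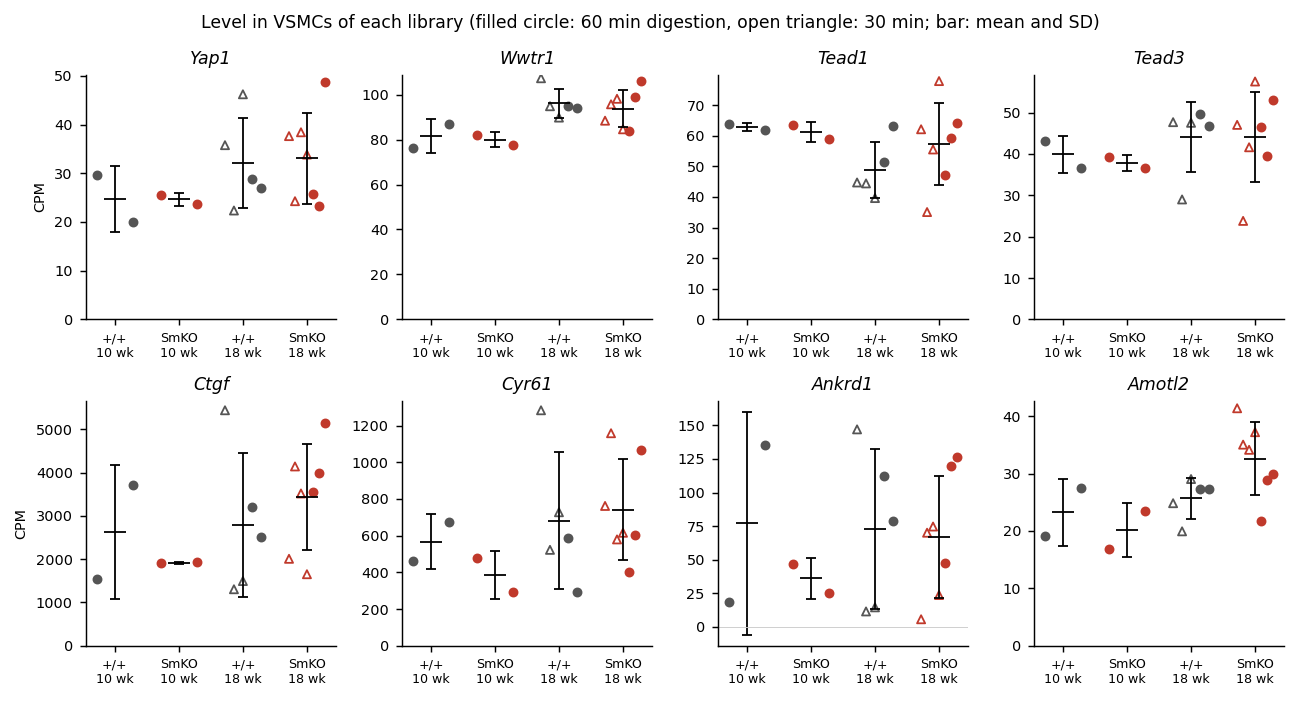
Level in CPM (vertical axis) of each of the 8 genes in the VSMCs of each library by genotype and weeks, with filled circles for 60 min and open triangles for 30 min of digestion, and the mean with SD as bars. The groups overlap for all 8 genes, and Ankrd1 spans 5.64 to 127 CPM among the Smad3SmKO libraries of 18 weeks.

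The pathway lists held no call in VSMCs. Of 31 Hippo genes, 19 other targets and 3 CCN genes tested, 0 passed at 10 weeks and 0 at 18 weeks, by edgeR and by DESeq2. At an unadjusted p under 0.05 there were 0, 1 and 0 at 10 weeks, beside 1.8% of all genes, and 1, 3 and 0 at 18 weeks, beside 4.73%. Of the 20 immediate early genes, 18 had a fitted value below 0 at 10 weeks (median -0.82), with 0 past the test and 2 at an unadjusted p under 0.05. In fibroblasts and endothelial cells 0 genes of these lists passed at either time, by edgeR or DESeq2. At an unadjusted p under 0.05 there were 2 of 33 Hippo genes and 1 of 22 other targets in fibroblasts at 18 weeks, beside 2.39% of all genes, and 0 of 30 and 2 of 21 in endothelial cells, beside 2.94%.

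Fibroblasts are not a target of the Myh11 promoter, and no gene of the 8 passed there either. At 18 weeks 0 passed by edgeR (0% of 14626 genes did) and 0 in DESeq2, but 2 had an unadjusted p under 0.05 (2.39% of all genes did) and all 8 had a fitted value above 0, with a median of 0.28 beside 0.01 for all genes. Ctgf was 2119, 979, 985, 2165 and 2148 CPM in Smad3+/+ and 982, 2928 and 3594 CPM in the libraries labelled Smad3SmKO (lowest, median and highest of 7). Of those 7, 5 lay above every control, the log2 fold change was 0.50 (SE 0.13, adjusted p = 1), and the within-batch difference was above 0 in 3 of 4 batches (0.57 to 0.73) and -0.00 in batch 2. Amotl2 was 23.1, 17.6, 27.3, 31.0 and 47.2 CPM in Smad3+/+ and 31.0, 35.7 and 50.5 CPM under the other label, at 0.60 (SE 0.17, adjusted p = 1), and was higher in 4 of 4 batches by 0.17 to 0.87. Tead1 (0.28, SE 0.16) and Wwtr1 (0.12, SE 0.09) were also higher in 4 of 4 batches. Ankrd1 was at 0.55 (SE 0.71), Cyr61 at 0.27 (SE 0.29), Tead3 at 0.23 (SE 0.23) and Yap1 at 0.16 (SE 0.23). The summed level of the 6 smooth muscle markers, all with UMIs, in fibroblasts was 463 to 1773 CPM (median 1068) in Smad3+/+ and 410 to 12452 CPM (median 2589) under the Smad3SmKO label, with overlapping ranges. Their part in the values of the 8 genes was not tested.

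At 10 weeks in fibroblasts 0 of the 8 passed by edgeR (0% of all genes), 0 had an unadjusted p under 0.05 and 0 passed in DESeq2. Ctgf was 2500 and 2412 CPM in Smad3+/+ and 3154 and 3018 CPM under the Smad3SmKO label, so the groups did not overlap (0.34 on the log2 scale, SE 0.20). Ranges were apart for 23.5% of all genes in this comparison. Wwtr1 did not overlap either, at 111 and 113 CPM against 125 and 115 CPM (0.10, SE 0.14). Amotl2, at 86.3 and 62.1 CPM against 70.0 and 84.6 CPM, did overlap (0.07, SE 0.26), as did the other 5 genes. The summed smooth muscle markers were 2770 and 2849 CPM in Smad3+/+ and 3486 and 3711 CPM under the Smad3SmKO label, and their part was not tested. The change of the genotype effect between times passed for 0 of the 8 (0% of all genes, 0 at an unadjusted p under 0.05 and 0 in DESeq2).

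**Figure D4:**
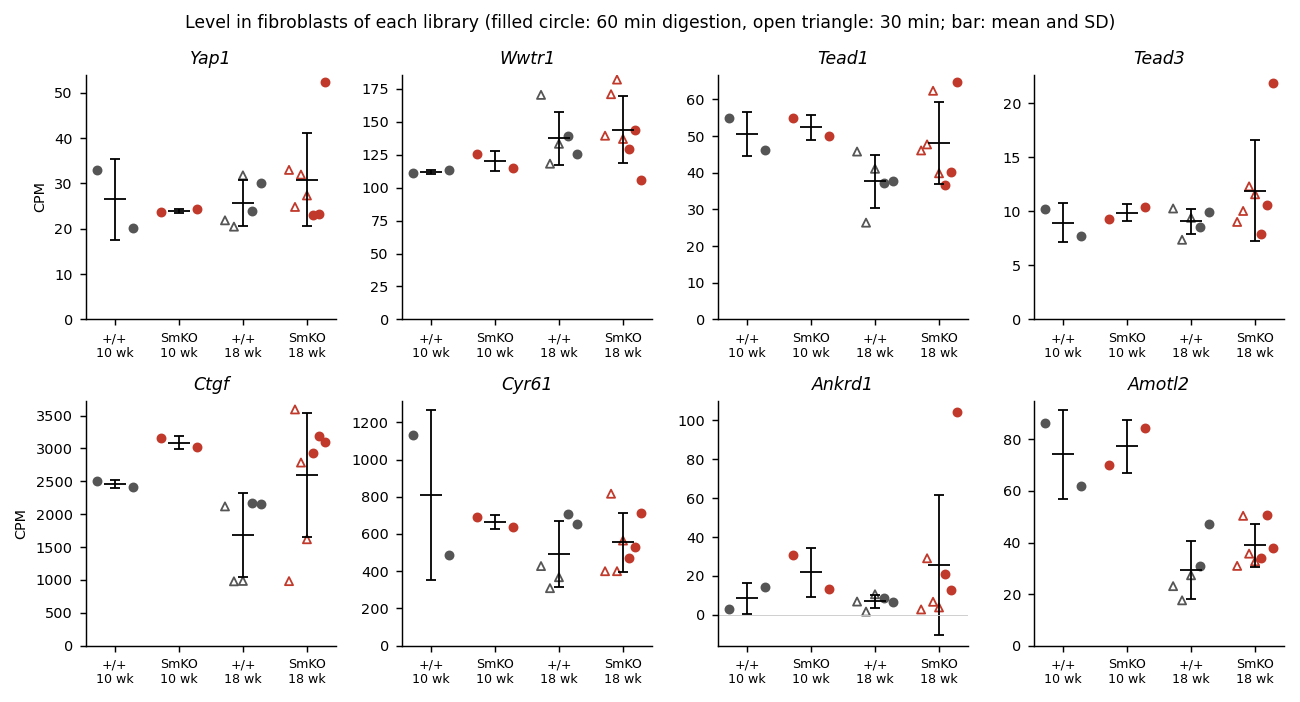
Level in CPM (vertical axis) of each of the 8 genes in the fibroblasts of each library by genotype and weeks, with filled circles for 60 min and open triangles for 30 min of digestion, and the mean with SD as bars. Amotl2 lies at 62.1 to 86.3 CPM in the 4 libraries of 10 weeks and at 17.6 to 50.5 CPM in all 12 of 18 weeks, and Ankrd1 reaches 104 CPM in 1 Smad3SmKO library.

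In endothelial cells, also no target of that promoter, no gene of the 8 passed. At 18 weeks 0 of the 8 passed by edgeR (0% of 11683 genes) and 0 in DESeq2, 1 had an unadjusted p under 0.05 and all 8 had a fitted value above 0 (median 0.22 beside -0.00). That 1 was Amotl2, at 27.3, 16.1, 31.3, 37.5 and 39.6 CPM in Smad3+/+ against 24.8, 41.6 and 47.2 CPM under the Smad3SmKO label, with a log2 fold change of 0.55 (SE 0.23, adjusted p = 0.999). Amotl2 was higher in 3 of 4 batches, and in 4 of 4 in endothelial cells of 1 type only (0.20 to 1.96), where the fitted value was 0.74 (SE 0.26, adjusted p = 1). In those cells Ctgf was at 0.00 and Yap1 at -0.33 (SE 0.26), against 0.35 (SE 0.21) and 0.24 (SE 0.22) by the rule as given, so the values above 0 were not kept for all 8. At 10 weeks 0 of the 8 passed (0% of all genes, 0 in DESeq2), and Ctgf alone had an unadjusted p under 0.05, at 1244 and 1047 CPM against 1934 and 1973 CPM (0.77, SE 0.31, adjusted p = 1, beside 3.62% of all genes at that p), with a value of 0.68 (SE 0.72) in those of 1 type only. Without overlap were also Wwtr1 (82.1 and 140 CPM against 155 and 160 CPM), Tead1 and Cyr61, beside 27.5% of all genes without overlap. In endothelial cells of 1 type only it was Wwtr1 alone, beside 28.8%. The change between times passed for 0 of the 8 (0% of all genes, 0 at an unadjusted p under 0.05, 0 in DESeq2).

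Whether the genotype effect at 18 weeks was the same in VSMCs and in fibroblasts was tested directly. The difference passed for 0 of the 8 by edgeR (0.00691% of all genes), with 0 at an unadjusted p under 0.05 and 0 in DESeq2. The fitted effect was lower in VSMCs for 7 of the 8, with a median difference of -0.24 beside -0.04 for all genes. It was -1.08 for Ankrd1 (SE 0.54, adjusted p = 1), -0.36 for Tead3 (SE 0.24), -0.35 for Ctgf (SE 0.27), -0.21 for Amotl2 (SE 0.23) and 0.00 for Tead1 (SE 0.15).

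Digestion time can be a source of stress transcripts, and it was compared at 18 weeks between 5 libraries of 60 min and 7 of 30 min, over both genotypes. The libraries of 30 min were of batches 1, 2 and 3 and those of 60 min of batches 5 and 6, so digestion and batch cannot be told apart. None of the 8 passed in any cell type by edgeR or DESeq2, beside 4.33% of all genes in VSMCs, 5.67% in fibroblasts and 2.75% in endothelial cells. At an unadjusted p under 0.05 there were 0, 1 and 0. That 1 was Amotl2 in fibroblasts, at 17.6, 31.0 and 50.4 CPM after 30 min and 31.0, 33.8, 37.9, 47.2 and 50.5 CPM after 60 min, with a log2 fold change of 0.45 (SE 0.17, adjusted p = 0.146). The summed smooth muscle markers in fibroblasts were 410 to 3054 CPM after 30 min and 1068 to 12452 CPM after 60 min, and their part was not tested. Ankrd1 had the largest fitted values, 0.86 in VSMCs (SE 0.74), 1.15 in fibroblasts (SE 0.70) and 1.62 in endothelial cells (SE 0.82), and its highest level after 60 min by the rules as given was in replicate 7 of Smad3SmKO in all 3 types. In endothelial cells of 1 type only, where that replicate had too few cells, Ankrd1 was 0 to 18.9 CPM after 30 min and 1.36 to 58.9 CPM after 60 min. The fitted value there, 4.41 (SE 1.28, adjusted p = 0.136), depends on the prior count, since all 3 Smad3+/+ libraries of 30 min were at 0. Ctgf was at 0.30 (SE 0.39), 0.54 (SE 0.29) and 0.31 (SE 0.31) in the same order, and at 0.14 (SE 0.67) in endothelial cells of 1 type only. Cyr61 was at -0.58 in VSMCs (SE 0.32) and 0.46 in fibroblasts (SE 0.22).

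Some immediate early genes did differ between libraries of 60 and 30 min, which were also of different batches. Calls are given beside the shares of all genes that passed, 4.33% in VSMCs, 5.67% in fibroblasts and 2.75% in endothelial cells. In fibroblasts 6 of 20 rose with 60 min and 0 fell, among them Ier5 (1.59, SE 0.21), Atf3 (1.45, SE 0.24), Ier3 (1.41, SE 0.32) and Nfkbia (1.26, SE 0.23). In endothelial cells by the rule as given 5 rose and 0 fell, the largest Ier3 (1.67, SE 0.33) and Atf3 (1.63, SE 0.33). Of those cells 1813 of 3303 were also fibroblasts, so these 2 results share cells. In VSMCs 0 rose and 1 fell, Btg2 (-1.05, SE 0.24). Of 31 Hippo genes tested in VSMCs, Limd1 (-1.17, SE 0.18) and Vgll4 (-0.76, SE 0.17), which encodes a competitor of YAP for TEAD, fell with 60 min. Of 33 tested in fibroblasts, Vgll4 (-0.93, SE 0.22) and Fat3 (-2.41, SE 0.53) fell. Of 3 CCN genes tested, Wisp2 rose in VSMCs and in fibroblasts, by 1.49 (SE 0.37) and 0.57 (SE 0.15). Of 22 other targets tested in fibroblasts, Gadd45a alone passed and rose (0.64, SE 0.17).

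Between 18 and 10 weeks, among libraries of 60 min digestion, Amotl2 in fibroblasts was the only call. It was 86.3 and 62.1 CPM in Smad3+/+ and 70.0 and 84.6 CPM in the libraries labelled Smad3SmKO at 10 weeks. At 18 weeks it was 31.0 and 47.2 CPM in Smad3+/+ and 33.8, 50.5 and 37.9 CPM under the Smad3SmKO label, so all 5 libraries lay below all 4 of 10 weeks, and 22.1% of all genes did not overlap between the times. On the log2 scale the times differed by -0.91 (SE 0.20, adjusted p = 0.00855), 1 of the 8 genes beside 19.9% of all genes, and DESeq2 called it too. It missed the threshold without Smad3+/+ replicate 4 of 18 weeks (-0.78, SE 0.22, adjusted p = 0.0548) and without replicates 4 and 5, whose GFP went against their label (-0.92, SE 0.26, adjusted p = 0.0564). All libraries of 10 weeks were of batch 4, so time and batch cannot be told apart. The summed smooth muscle markers in fibroblasts were 2770 to 3711 CPM at 10 weeks and 1068 to 12452 CPM at 18 weeks with 60 min, and their part was not tested.

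Amotl2 did not pass in the other types. In endothelial cells Amotl2 was at -0.66 (SE 0.23, adjusted p = 0.108), and at -0.57 (SE 0.30, adjusted p = 0.338) in those of 1 type only. In VSMCs it was 21.8, 27.3, 27.3, 28.9 and 29.8 CPM at 18 weeks and 16.9 to 27.4 CPM at 10 weeks, at 0.35 (SE 0.16, adjusted p = 0.149). VSMCs had 0 of the 8 past the test beside 16.5% of all genes (1 at an unadjusted p under 0.05, 0 in DESeq2), and endothelial cells 0 beside 4.1% (2 at an unadjusted p under 0.05, Amotl2 and Tead1 at -0.50, SE 0.23, and 0 in DESeq2). Ctgf in endothelial cells did not overlap between the times, at 1993 to 3799 CPM against 1047 to 1973 CPM (0.73, SE 0.36, adjusted p = 0.250), beside 10.7% of all genes, but did in those of 1 type only. In VSMCs, Ankrd1 (0.89, SE 0.79), Ctgf (0.64, SE 0.45), Yap1 (0.30, SE 0.22), Tead3 (0.29, SE 0.18), Cyr61 (0.25, SE 0.36), Wwtr1 (0.25, SE 0.13) and Tead1 (-0.11, SE 0.16) did not pass.

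**Figure D5:**
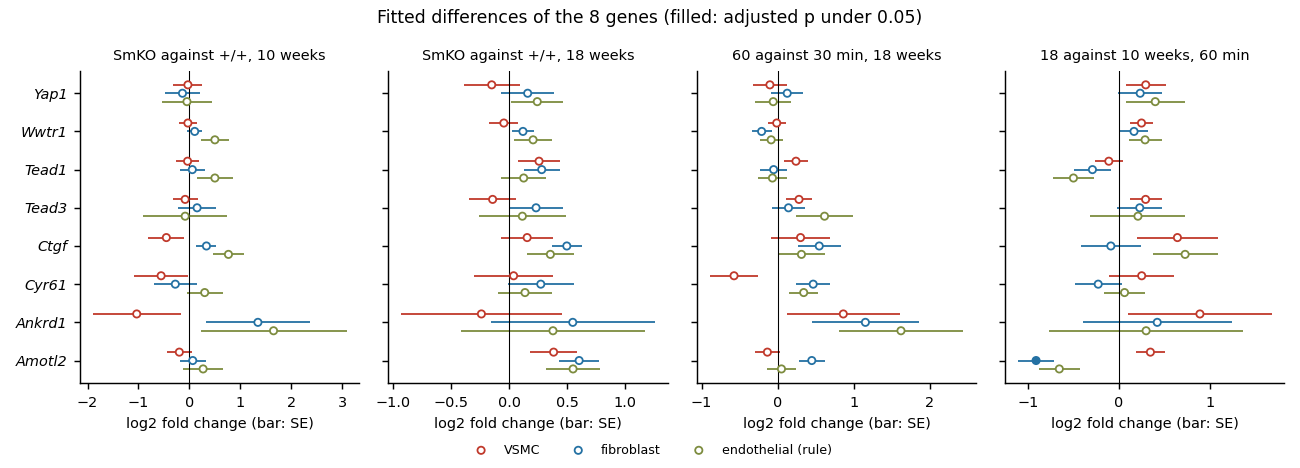
Fitted log2 fold change (horizontal axis, with SE) of each of the 8 genes in VSMCs, fibroblasts and endothelial cells by the rule, for the genotype at 10 and 18 weeks, for 60 against 30 min of digestion and for 18 against 10 weeks, with filled points for an adjusted p under 0.05. The single filled point is Amotl2 in fibroblasts at 18 against 10 weeks, at -0.91.

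Genes of the lists are given beside the shares of all genes that passed, 19.9% in fibroblasts, 16.5% in VSMCs and 4.1% in endothelial cells. In fibroblasts 4 of 33 Hippo genes were higher and 4 lower at 18 weeks, the largest Wtip (0.78, SE 0.23) and Fat3 (-1.99, SE 0.60), and 2 of 22 other targets were lower, Igfbp3 (-1.51, SE 0.46) and Rbms3 (-0.998, SE 0.16). In VSMCs, of 31 Hippo genes, Wtip was higher (1.10, SE 0.18), Mob1b (-0.70, SE 0.15) and Taok1 (-0.56, SE 0.15) were lower, and of the other targets Gadd45a was higher (0.68, SE 0.22) and F3 (-1.25, SE 0.30) and Rbms3 (-1.02, SE 0.16) lower. Of the immediate early genes 4 were higher in VSMCs (Socs3, Junb, Nfkbia and Ier5) and 2 in fibroblasts (Nfkbia and Ier5). In endothelial cells by the rule as given 1 of 30 Hippo genes was higher (Csnk1d, 0.75, SE 0.19) and 1 lower (Taok1, -0.63, SE 0.16), and Wisp2 was higher (1.35, SE 0.31).

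Across the 16 libraries the levels of the 8 genes in VSMCs did not move as a block. As Pearson's r of log2 CPM, given as a description over libraries that differ in depth, batch and digestion, Ctgf and Ankrd1 went together most (r = 0.843), and each was the other's closest gene of 11852. Ctgf with Wwtr1 (0.647) and with Cyr61 (0.512), and Wwtr1 with Cyr61 (0.651), were lower, Ctgf with Yap1 was 0.0711 and Ankrd1 with Amotl2 was -0.00969. Yap1 was most like Mical2 (0.877), Sh3bp5l and Cmtm6, and Wwtr1 most like Hspa5 (0.889), Tubb2a and Impdh2. Tead1 was most like Arhgef10 (0.854), Togaram1 and Fam98a, and Tead3 most like Zkscan17 (0.853), Arhgef2 and Bcl2l2. After Ankrd1, Ctgf was most like Map2k2 (0.841) and Myl12a, and after Ctgf, Ankrd1 most like Tmem35b (0.840) and Tfpt. Cyr61 was most like the heat shock genes Hspa1a (0.822) and Hspa1b (0.817) and P2rx5, and Amotl2 most like Gypc (0.823), Ppif and Ftsj3. With 16 libraries and that many genes, values of this size say little about any single pair.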

How the data were processed

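Per the labels, each library was made with 10x 3′ chemistry from cells of 1 aorta sorted after collagenase and elastase digestion. The deposited values were raw UMI counts per gene and barcode that the authors made on mm10 with a GFP sequence added. The submitters' processing notes name Cell Ranger 6 and Seurat 4, while the headers of all 16 matrices name Cell Ranger 4. Replicates were not pooled.

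Cells with over 600 and under 6000 genes, over 2000 and under 50000 UMIs and under 25% mitochondrial UMIs were kept. Doublets were not removed beyond these upper limits. UMIs were summed per library and cell type where at least 10 cells were present, with cells as no replicates. Sums were tested with edgeR 4.0.16 (TMM scaling, filter on low counts, quasi-likelihood test, Benjamini-Hochberg adjustment over all genes tested), with DESeq2 1.42.0 as an alternative, in R 4.3.3. The SE given with an edgeR log2 fold change is its absolute value divided by the square root of the F statistic. It is not a separately fitted standard error, and the p-value can be larger than it implies. Genotype was fitted within weeks with batch as a term. Digestion and weeks are nested in batch and were fitted over groups without it. Cell types were fitted with the library as a block. CPM used a joint TMM scaling over the 3 types. The scripts were tested on simulated data. Python 3.11.15 was used for the rest.

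All 8 genes are given in each comparison. Of other lists, up to 4 genes past the threshold with the largest change in each direction were to be named, and for each of the 8, the 3 genes most like it in VSMCs. The 8 genes and the lists were chosen with earlier results of these data known. Nothing in the labels says more of how replicates were raised, so p-values measure the spread between these mice.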

Additional observations from a re-analysis of the deposited data

Results flagged for a closer look

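In groups of 4 to 10 libraries, 8 of 48 gene and group pairs held a library far from the rest by Dixon's test, and chance gives about 1 in 20. Of these, 5 came from Smad3SmKO replicate 7 of 18 weeks. In its fibroblasts Yap1 was 52.3 CPM, Tead3 21.9 CPM and Ankrd1 104 CPM, each the highest of its group, and in its endothelial cells Tead3 was 30.0 CPM and Ankrd1 63.9 CPM. The smooth muscle gene Myh11 was 405 CPM in the same fibroblasts and 1352 CPM in the same endothelial cells, and its part in these values was not tested. The others were Wwtr1 in VSMCs of Smad3+/+ replicate 1 of 18 weeks, at 107 CPM, Tead3 in VSMCs of Smad3+/+ replicate 2, at 29.0 CPM and the lowest of its group, and Wwtr1 in endothelial cells of Smad3+/+ replicate 4, at 212 CPM.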

How the results depend on the processing

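Over 20 comparisons, 409 values under an alternative belonged to results past the threshold: 0 changed sign and 25 lost the threshold. Of 3706 values of results not past it, 199 changed sign and 26 passed. Of 195 counts of the 8 genes called, 185 stayed within 1.5 times. These include counts of 0 that stayed at 0, and most comparisons had 0 calls. Leaving out 1 library at a time gave 5 to 6 calls between VSMCs and fibroblasts, 6 to 8 between VSMCs and endothelial cells, 2 to 3 between fibroblasts and endothelial cells, 1 to 3 between the VSMC subsets and 0 to 1 for 18 against 10 weeks in fibroblasts, and 0 to 0 in the other comparisons. Without a filter on low counts there was 1 call in place of 0 for genotype at 10 weeks in VSMCs (Ankrd1), 2 in place of 0 for digestion in VSMCs (Cyr61 and Ankrd1), 2 in place of 0 for 18 against 10 weeks in VSMCs (Ctgf and Ankrd1), and 3 in place of 1 between the VSMC subsets (Cyr61 and Ankrd1 added). Without TMM scaling there were 2 in place of 0 for 18 against 10 weeks in VSMCs (Wwtr1 and Amotl2), 1 in place of 0 for digestion in fibroblasts (Wwtr1), and 5 in place of 8 between VSMCs and endothelial cells, with Yap1, Ctgf and Cyr61 lost. Leaving the scaling out moved the median of all genes by 0.177, -0.198 and -0.18 on the log2 scale in these 3. Between fibroblasts and endothelial cells there were 4 calls with the marker minimum doubled and 5 with cells of 1 type only, in place of 2. Under either setting the share of all genes that passed was not taken. Without Smad3+/+ replicates 4 and 5 of 18 weeks there were 0 in place of 1 for 18 against 10 weeks in fibroblasts. The causes were not tested beyond what each alternative changes. No paired analysis was possible because the labels give no replicate numbers that pair the genotypes. Batch was a term in the genotype fits, and the library was a block in the fits between cell types. With 2 libraries per genotype at 10 weeks and as few as 22 VSMCs in a library, small differences were not detectable. Larger ones could be missed too, since at 10 weeks in VSMCs 0 of 11852 genes passed and Ankrd1 had an SE of 0.86.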
